A study of Mus musculus with 4 samples.

Results

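The ribosomal protein genes were examined in the single-cell transcriptomes of mouse neural stem cell (NSC) lines. Members were all genes whose symbol is Rpl or Rps, a number, and at most a letter and a digit, which gave 79 genes, 48 of the large subunit (*Rpl*) and 31 of the small subunit (*Rps*). The same 79 were listed among 26007 genes of XN4, 24486 of XN1, and 25685 of CN4. The 4 lines were derived from 129/Sv epiblast stem cells (EpiSCs), and all were kept with EGF and FGF2, each at 10 ng/ml. XN4 and XN1 were also given 10 µM XAV939, a tankyrase inhibitor that lowers Wnt signaling, from different suppliers. KN1 received neither agent, and CN4 was given 2 µM CHIR99021, a GSK3 inhibitor that raises Wnt signaling. Each is a single derived line, measured with 1 BD Rhapsody library of cells captured on barcoded beads. For KN1 only a normalized table was used here, from which every symbol starting with Rpl or Rps had been left out, so the members have values in XN4, XN1, and CN4.

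The ribosome joins a small subunit, which reads the mRNA, and a large subunit, which links amino acids. Each ribosome holds about 1 copy of each ribosomal protein, and their mRNAs are short, abundant, and present in nearly every cell type. Many begin with a run of pyrimidines, the 5′ terminal oligopyrimidine (TOP) tract, by which growth signals control their translation. A few genes have paralogs that encode a variant of the same protein, some of them restricted to testis or muscle.

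The tables held 8741 cells and 140311227 reads in XN4, 14452 cells and 93096507 reads in XN1, and 18157 cells and 180825519 reads in CN4. With 1 library per line, no line was tested against another, and intervals cover at most counting error. They treat each read as independent, but these are reads and not unique molecules, so the intervals can be too narrow. Cell indices found in more than 1 table numbered 139 for XN4 and XN1, 320 for CN4 and XN1, and 169 for XN4 and CN4. The XN4 library stood apart from its label. Of 12 neural stem cell markers, 5 reached 5 RPM (reads per 1000000 reads of the library) in XN4 against 11 in XN1 and 12 in CN4, with *Fabp7* at 0 and *Sox2* at 0.698 RPM, whereas the 10 mesenchymal or fibroblast markers summed to 6086 in XN4, 221 in XN1, and 191 in CN4. CN4 against XN1 is therefore the pair without XN4.

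The 79 members lie on 19 chromosomes, with 13 of them on chromosome 7. Starts were listed by RefSeq for 60 members, 72 starts in all (GRCm38.p6). A tract was searched on the sense strand as a C followed by at least 4 more C or T, beginning within 10 bases of the listed start. It was found at 40 of the 72 starts, 55.6%, and at 30.7% of all 32851 listed starts. Shown are 30 bases around the start, 15 before it and 15 from it on, with the tract in capitals. The first 4 are, for each subunit, the 2 members with a listed start that differed most between cells with many and few ribosomal reads (mean of XN1 and CN4, described further on), and the next 4 are those that differed least. The last 4 are expressed paralogs, the partner of one of them, and *Rps10*, the member that differed most between lines.
*Rpl35*, chr2:39005117-39005146, minus strand: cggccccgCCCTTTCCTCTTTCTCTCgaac
*Rpl39*, chrX:37085208-37085237, minus strand: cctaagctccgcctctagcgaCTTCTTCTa
*Rps12*, chr10:23787195-23787224, minus strand: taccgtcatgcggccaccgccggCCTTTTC
*Rps24*, chr14:24490663-24490692, plus strand: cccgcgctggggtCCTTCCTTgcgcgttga
*Rpl7l1*, chr17:46782642-46782671, minus strand: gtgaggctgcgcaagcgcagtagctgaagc
*Rpl9*, chr5:65391417-65391446, minus strand: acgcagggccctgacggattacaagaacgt
*Rps3a1*, chr3:86142654-86142683, minus strand: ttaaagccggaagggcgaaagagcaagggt
*Rps6*, chr4:86857353-86857382, minus strand: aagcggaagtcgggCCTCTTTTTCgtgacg
*Rps27*, chr3:90213634-90213663, minus strand: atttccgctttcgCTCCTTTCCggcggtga
*Rps27l*, chr9:66946071-66946100, plus strand: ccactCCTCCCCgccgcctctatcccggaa
*Rpl22l1*, chr3:28805493-28805522, plus strand: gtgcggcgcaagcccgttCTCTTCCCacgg
*Rps10*, chr17:27635230-27635259, minus strand: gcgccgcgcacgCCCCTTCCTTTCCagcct
The first 4 carry a tract, and of the next 4 only *Rps6* does. *Rps24* and *Rps27l* each have another listed start, in which these letters were not found. *Rpl32* and *Rps20*, whose differences were larger still or nearly as large, had no start in the list. The search rests on the listed starts, and whether these cells use them was not tested. A run of pyrimidines that begins further from the listed start, as in *Rpl4*, was not counted. Over all members with a listed start, those with and without a tract overlapped in their differences, as given further on.

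The members made up 6.01% of all reads in XN4 (95% interval 6.01–6.02%), 5.21% in XN1 (5.21–5.22%), and 6.09% in CN4 (6.09–6.10%). The large subunit gave 50.6% of the member reads in XN4, 51.7% in XN1, and 49.7% in CN4, so both subunits contributed nearly equally in each library. In the typical cell the order was not the same, as the median share over cells was 4.73% in XN4, 5.13% in XN1, and 6.07% in CN4. Deep cells weigh more in the XN4 total, and after thinning each cell to 3600 reads the shares were 5.17%, 5.13%, and 5.85%. Mitochondrial reads took 22.6% of XN4, 15.1% of XN1, and 15.1% of CN4, and their part in the XN4 share was not tested. Without mitochondrial genes in the total, the members made up 7.77% in XN4, 6.14% in XN1, and 7.18% in CN4. CN4 was above XN1 under each of these settings, whereas the place of XN4 moved from above both to below both.

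Among the members, 76 reached 5 RPM in at least 1 line. The 3 that did not are *Rpl3l*, *Rpl10l*, and *Rpl39l*, paralogs known mainly from muscle or testis. Among the most abundant members was *Rps26*, which lies at the mRNA exit channel, with 2562 RPM in XN4, 1811 in XN1, and 2044 in CN4. *Rps9*, an early-binding small subunit protein, had 1955, 1695, and 1853. *Rps12* gave 1421, 1400, and 1588, and *Rpl6*, a large subunit protein, 1583, 1102, and 1368. Over all reads, these 4 members were lowest in XN1. In thinned cells, *Rps26* and *Rpl6* were still lowest in XN1, but *Rps12* and *Rps9* were lowest in XN4. The mean thinned reads per cell of *Rps12* were 4.14 in XN4, 4.90 in XN1, and 5.33 in CN4. Those of *Rps9* were 5.90, 6.04, and 6.49. In all, 20 members averaged 1000 RPM or more over the lines, 33 lay from 500 to under 1000, and 21 from 100 to under 500. Only *Rpl7l1* and *Rps10* were between 5 and 100.

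**Figure D1:**
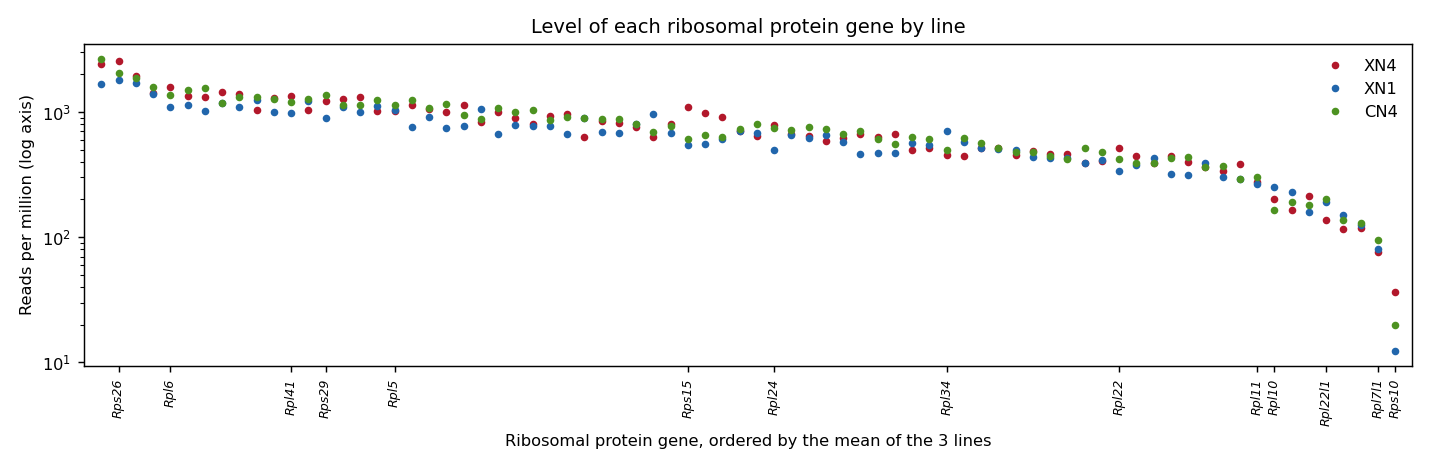
Level in RPM (log axis) of the 76 ribosomal protein genes with 5 RPM in at least 1 line, ordered by the mean of the lines, with 1 point for each of XN4, XN1, and CN4. A few genes are named on the axis; *Rps26* reaches 2562 in XN4, and *Rps10* is lowest, at 12.3 in XN1, 20.0 in CN4, and 36.4 in XN4.

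Per kilobase of coding sequence the order was different. *Rpl41*, whose coding sequence of 75 nt is the shortest of the members, came first with a level of 18010 RPM per coding kilobase in XN4, 13090 in XN1, and 16080 in CN4. *Rpl39*, next with 153 nt, had 6826, 8212, and 8624 on the same scale. Among the 76 members with 5 RPM in at least 1 line, the lowest levels per coding kilobase were those of *Rps10*, at 73.4, 24.8, and 40.5, and of *Rpl7l1*, at 103, 109.5, and 128. *Rpl7l1* is a paralog and not a core protein of the ribosome. Coding sequence stands in for transcript length here, although the listed transcripts of *Rpl41* and *Rpl39* are much longer, at 437 and 612 nt. Whether reads of these bead-captured libraries scale with length was not tested, so this order may come from the division itself. The reads of some members may also have been assigned to near-identical genes, as described next.

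Ribosomal protein genes have many processed copies in the mouse genome. Of the 79 members, 25 had every 75-base stretch of their coding sequence in a transcript of another gene (GENCODE M21), 62 had at least 50% of the stretches there, and 4 had none, among them *Rpl39l*, *Rpl3l*, and *Rps3*. *Rps10* (chr17:27630418-27636669, minus strand) had 81.5% of its stretches in other genes and shares exons with *RPS10-NUDT3*, a read-through gene with at most 0.0645 RPM in any line, so its low level is uncertain. The expressed members with all stretches shared had a median level of 1844 RPM per coding kilobase (25 genes), against 1131 for the 14 members with under 50% shared. Without division by length, the medians of these groups were 873 and 586 RPM. The groups hold different genes, and how many reads the members lost to copies was not tested.

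Between lines, the ratio of the highest to the lowest line had a median of 1.29 over the 76 expressed members, was under 1.5 for 61 (80.3%), and under 1.2 for 23 (30.3%). Over all 11693 genes with 5 RPM in at least 1 line the median was 1.81, with 32.1% under 1.5 and 8.45% under 1.2. *Rps10* was the least even (2.97). A gene was counted as past the fold at 1.5-fold or more in RPM, among genes with 5 RPM in at least 1 line of the pair. The pairs share lines, so their counts are not independent of each other.

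In CN4 against XN1, 9 of 76 members (11.8%) were at least 1.5-fold higher in CN4 and 1 (1.32%) was lower, while 66 lay within the fold. Among all 11042 genes tested, 17.8% were higher and 16.3% lower. The median log2 ratio was 0.19 for the members and 0.08 for all genes, and 64 of 76 members were above 0. The share of all genes above 0 was not computed. *Rpl27a*, a large subunit protein, had 1245 RPM in CN4 and 761 in XN1 (log2 ratio 0.71). *Rps25*, needed for translation from internal entry sites, had 1071 in CN4 and 668 in XN1 (0.68). Also higher were *Rps27a*, which is made as a fusion with ubiquitin (0.62), *Rps29* (0.61), *Rpl24* (0.60), *Rpl35* (0.59), *Rps20* (0.59), and *Rps10* (0.71). *Rpl10*, which joins the large subunit last, was the member that was lower, with 164 in CN4 and 250 in XN1 (-0.61). The next smallest ratios were those of *Rpl34* (-0.51), *Rps14* (-0.48), *Rps27l* (-0.27), and *Rpl9* (-0.25), and on the other side *Rpl35* and *Rps20* were just past the fold, at 1.51-fold. With the median ratio of the members set to 1, 0 members were higher (12.0% of all genes) and 3 lower (21.8%). In cells with under 20% mitochondrial reads, 4 were higher (17.7% of all genes), and 5 were higher (18.2%) and 2 lower (16.2%) in the cells of the normalized tables.

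In XN4 against XN1, 6 of 76 members (7.89%) were higher in XN4 and 2 (2.63%) lower, against 22.6% and 26.1% of 11385 genes. *Rps10* had 36.4 RPM in XN4 (Poisson 95% interval 35.4 to 37.4) and 12.3 in XN1 (11.6 to 13.0), a log2 ratio of 1.57. *Rps15*, a small subunit protein at the decoding side, had 1096 and 546 (1.01). *Rpl24* had 790 and 496 (0.67), *Rpl22*, an RNA-binding protein of the large subunit, 516 and 336 (0.62), and *Rpl27a* 1143 and 761 (0.59). Lower in XN4 were *Rpl34*, with 455 and 711 (-0.64), and *Rps14*, with 632 and 970 (-0.62). The 5 smallest ratios also held *Rpl4* (-0.50), *Rps27l* (-0.49), and *Rpl22l1* (-0.47). These counts, and which direction held more members, depended on the scaling and on the cells used. With reads outside ribosomal protein and mitochondrial genes as the total, 19 members were higher (27.9% of all genes) and 0 lower (21.5%), and in cells with under 20% mitochondrial reads 18 were higher (24.3%) and 0 lower (21.3%). After thinning, by contrast, 3 were higher (21.9%) and 8 lower (32.6%), and without the 5% of cells with the most reads 4 were higher (22.4%) and 5 lower (28.3%).

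In XN4 against CN4, 2 of 76 members (2.63%) were higher in XN4, against 22.5% of 11426 genes, and 0 were lower, against 30.3%. They were *Rps10* (36.4 and 20.0, log2 ratio 0.86) and *Rps15* (1096 and 606, 0.86). *Rpl28* (0.52) and *Rpl10a* (0.40) were also among the largest ratios. At the other end were *Rpl22l1* (-0.57), *Rpl4* (-0.51), *Rpl21* (-0.39), and *Rps27* (-0.37). The median was -0.09 for the members and -0.14 for all genes. When reads outside ribosomal protein and mitochondrial genes were the total, these medians were 0.05 and -0.0004. After thinning, 2 members were higher (21.8% of all genes) and 6 lower (36.8%). *Rps10* and *Rps15* were thus highest in XN4, the library with mesenchymal markers.

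**Figure D2:**
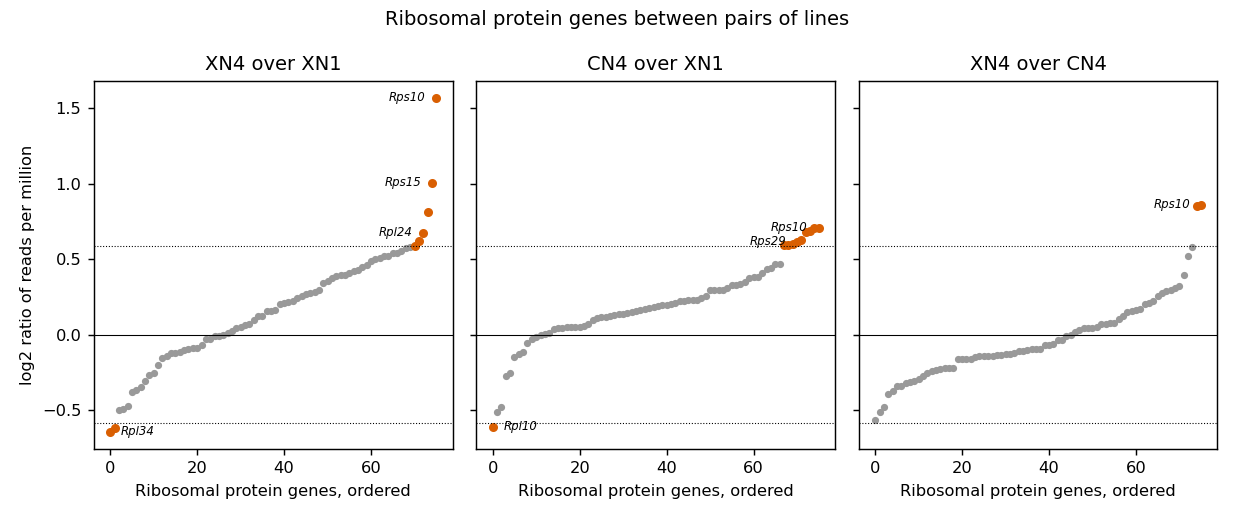
Log2 ratio of RPM (vertical axis) of 76 ribosomal protein genes in each pair of lines, ordered from lowest to highest (horizontal axis). Orange points are at least 1.5-fold apart (dotted lines), some of them named; 8 genes are past the fold in XN4 over XN1, 10 in CN4 over XN1, and 2 in XN4 over CN4.

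*Rpl5* and *Rpl11*, which with 5S rRNA bind Mdm2 and thereby stabilize p53, were even across the lines. *Rpl5* had 1027 RPM in XN4, 1046 in XN1, and 1129 in CN4, and *Rpl11* had 274, 265, and 304. The p53 target *Cdkn1a* had 120, 412, and 170, while *Mdm2*, another target, had 118, 81.3, and 52.1, and *Trp53* itself had 150, 93.3, and 105.

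Paralog use was compared as the share of reads within a pair, which does not depend on the library total. *Rpl22l1*, which can stand in for *Rpl22*, gave 21% of the reads of the pair in XN4 (20.7–21.3%), 36.1% in XN1 (35.7–36.6%), and 32.5% in CN4 (32.2–32.8%). In XN4, *Rpl22l1* was lowest (137 against 190 and 203 RPM) and *Rpl22* highest (516 against 336 and 422). *Rps27l*, a p53-inducible relative of *Rps27*, gave 17.0% in XN4 (16.8–17.2%), 23.1% in XN1 (22.8–23.4%), and 15.5% in CN4 (15.4–15.7%). Its own level was 165, 231, and 192 RPM, highest in XN1. All coding stretches of *Rps27* also occur in other genes, among them *Rps27rt* (74.9, 42.8, and 54.2 RPM), so its count is uncertain. *Rpl7l1* gave 6.77% of the *Rpl7* pair in XN4 (6.64–6.89%), 8.20% in XN1 (8.02–8.38%), and 8.08% in CN4 (7.97–8.20%).

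The tissue-restricted paralogs were near 0. *Rpl39l* had 12 reads in XN4, 4 in XN1, and 24 in CN4, against 116966 or more for *Rpl39*. *Rpl3l* had 5, 3, and 7 reads, and *Rpl10l* had 7, 3, and 1. A count of 0 would have allowed up to 0.0214 RPM in XN4, 0.0322 in XN1, and 0.0166 in CN4. *Rps4x* had 1032, 1231, and 1266 RPM, and *Rps4l* was not listed.

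**Figure D3:**
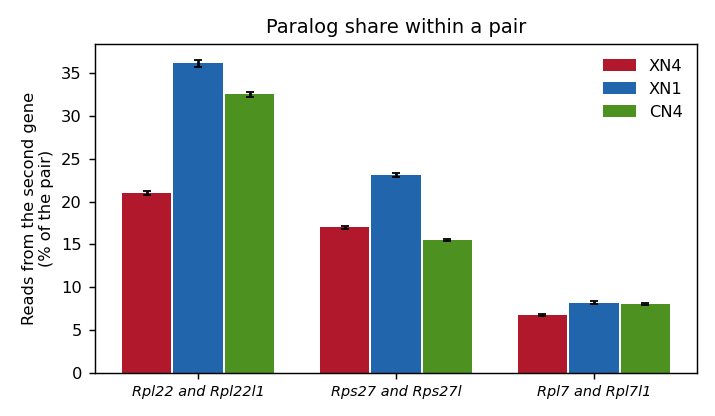
Reads of *Rpl22l1*, *Rps27l*, and *Rpl7l1* as a percentage of the reads of the pair (vertical axis, from 0) in XN4, XN1, and CN4. Error bars are exact 95% intervals of the counts; *Rpl22l1* is lowest in XN4 (21%) and *Rps27l* highest in XN1 (23.1%).

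In XN1 and CN4, but not in XN4, the cells had 2 peaks in their share of ribosomal protein reads. After thinning to 3600 reads per cell (12594 cells), the XN1 shares had a peak at 2 to 2.5% with 1066 cells and another at 6 to 6.5% with 1166 cells, and between them 654 cells at 3.5 to 4%. In CN4 (17614 cells) the peaks lay at 3 to 3.5% with 1855 cells and at 7.5 to 8% with 1493 cells, with 583 cells at 5 to 5.5% between them. XN4 (8587 cells) had a single peak, at 4 to 4.5% with 818 cells. With mitochondrial reads left out of the total, both peaks remained, at 2.5 to 3% and 7 to 7.5% in XN1 and at 3.5 to 4% and 8.5 to 9% in CN4. Without thinning, XN1 and CN4 likewise had 2 peaks and XN4 had 1.

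**Figure D4:**
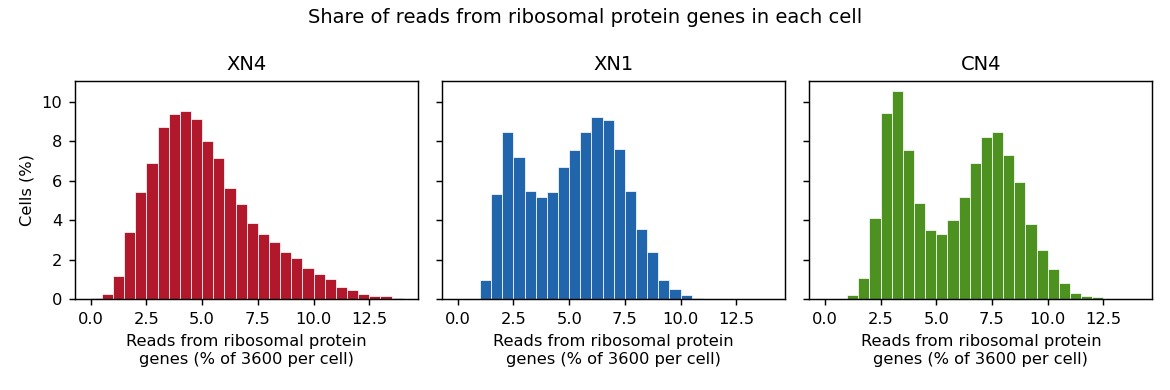
Percentage of cells (vertical axis) by the share of reads from ribosomal protein genes (horizontal axis, bins of 0.5%) after thinning each cell to 3600 reads, in XN4, XN1, and CN4. XN1 has peaks at 2 to 2.5% and 6 to 6.5%, CN4 at 3 to 3.5% and 7.5 to 8%, and XN4 a single one at 4 to 4.5%.

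Dividing cells lay on both sides of the gap in CN4. Thinned cells with a read of each of *Hmgb2*, *Mki67*, and *Top2a*, markers of cells in G2 and M, had a median share of 5.97% (quartiles 3.42 and 7.69%, 6580 cells), and cells with none of the markers had 5.83% (3.36 and 7.86%, 4408 cells). In CN4 the quartiles of each group thus reached past both sides of the gap. In XN1 the medians were 5.75% (quartiles 3.56 and 6.89%, 2027 cells) and 4.97% (3.03 and 6.58%, 7223 cells). There the lower quartile of the cells with all markers lay within the gap, at 3.5 to 4%, and not below it. In XN4, with its single peak, the medians were 5.47% (879 cells) and 4.42% (5407 cells), with mitochondrial reads at 22.8% and 30.3%.

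The share rose with the depth of the cell. Between the shallowest and the deepest 10% of cells it went in XN4 from 3.51% up to 7.72%, in XN1 from 3.79% up to 5.83%, and in CN4 from 4.75% up to 7.07%. Mitochondrial reads went the other way, with 41.0 and 13.3% in these XN4 cells, 20.6 and 13.9% in XN1, and 23.1 and 13.5% in CN4. Without mitochondrial genes in the total the rise was smaller, from 5.95 to 8.90%, from 4.78 to 6.76%, and from 6.18 to 8.17%.

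The members varied together over cells. The thinned reads of all *Rpl* and of all *Rps* genes had a Pearson correlation of 0.92 in XN4, 0.92 in XN1, and 0.93 in CN4 over cells that share a library. Single members with a mean of at least 1 thinned read correlated with the sum of the others with a median r of 0.50 in XN4 (66 members), 0.50 in XN1 (67), and 0.51 in CN4 (68), as against 0.19, 0.012, and 0.0011 for the 283, 406, and 427 other genes with that mean, mitochondrial genes left out. The members ranged from 0.15 to 0.71 in XN4, from 0.24 to 0.72 in XN1, and from 0.20 to 0.74 in CN4. The other genes ranged from -0.51 to 0.76, from -0.38 to 0.69, and from -0.30 to 0.71. They were not matched for length, and ribosomal protein genes with other symbols were not removed. These values are descriptions. The thinned reads of a cell share a fixed total, and its part in the correlations was not tested. *Rps26* was among the most variable members, with a variance over mean of 3.18, 2.66, and 2.94 and r of 0.68, 0.72, and 0.73. Its mean was also high, at 8.17, 6.41, and 7.10 thinned reads, and the variance over mean was not adjusted for level. *Rpl39* had a variance over mean of 3.55, 2.50, and 2.73. The median over the members was 1.98 in XN4, 1.63 in XN1, and 1.685 in CN4, against 2.045, 1.47, and 1.48 for the other genes. *Rps26* was detected in 97.9% of thinned XN4, 96.1% of XN1, and 97.2% of CN4 cells, while *Rps10* was detected in 11.2%, 4.08%, and 6.80%.

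To describe the groups of cells with genes that did not define them, cells were ordered by the share of reads from *Rps* genes, and the *Rpl* genes were compared between the highest and lowest tertile of cells. The mean *Rps* share was 1.28 and 3.63% in the XN1 tertiles (4198 cells each), 1.502 and 4.38% in CN4 (5871 cells each), and 1.37 and 3.94% in XN4 (2862 cells each). The tertiles are ranges and not cell types, as 1537 XN1, 2235 CN4, and 1737 XN4 cells lay within 0.25 percentage points of the lower limit. Of all 48 *Rpl* genes, with no filter on low values, 47 were higher in the high tertile in XN1, 46 in CN4, and 47 in XN4, and 0 were lower. The others were *Rpl3l* and *Rpl10l*, which with *Rpl39l* rest on a few reads. The share of all genes higher was not computed. The summed *Rpl* and *Rps* reads correlated at 0.92 to 0.93 over cells, so ordering by one subunit nearly orders the other. Of other genes with at least 50 RPM (geometric mean) and coding sequences under 600 nt, 439 of 455 were also higher in XN4. The XN4 count thus does not set the members apart from short genes. In XN1 456 of 579 were higher, and in CN4 460 of 567. Most long genes were not, as given further on. Over the 45 *Rpl* genes with a geometric mean of at least 50 RPM over the high and low tertiles, the median log2 ratio was 1.49 in XN1, 1.44 in CN4, and 1.37 in XN4. When the cells were ordered by *Rpl* share, all 31 *Rps* genes were higher, and over the 30 at that level the median was 1.48, 1.57, and 1.51. *Rps10* was below it, with 6.15 and 17.1 RPM in the XN1 tertiles, 11.4 and 26.6 in CN4, and 29.02 and 43.4 in XN4, and at under 1 thinned read per cell *Rps10* had r with the other members of 0.073 in XN1, 0.081 in CN4, and 0.028 in XN4.

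The size of the difference varied among members in an order that XN1 and CN4 shared. Over the 45 *Rpl* genes, the log2 ratios of XN1 and CN4 had a Pearson correlation of 0.97, those of XN4 and XN1 0.72, and those of XN4 and CN4 0.67. *Rpl32* had 178 RPM in the low and 899 in the high tertile of XN1 (log2 ratio 2.34), and 212 and 1015 in CN4 (2.26). *Rpl35* had 150 and 716 in XN1 (2.25), and 233 and 1059 in CN4 (2.18). *Rpl39* had 437 and 1879 in XN1 (2.10), and 300 and 1464 in XN4 (2.29), where it was first. *Rpl12*, part of the stalk base of the large subunit, had 2.08 in XN1, 2.06 in CN4, and 1.99 in XN4. At the other end was *Rpl7l1*, with 64.4 and 96.9 in XN1 (0.59), and 82.8 and 99.1 in CN4 (0.26). *Rpl3*, of the peptidyl transferase center, had 0.77 in XN1, 0.55 in CN4, and 0.87 in XN4. Among *Rps* genes ordered by *Rpl* share, *Rps12* was highest in XN1 and CN4 (2.09 and 2.19) and *Rps3a1* lowest (0.59 and 0.64).

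Members with short coding sequences differed more. In XN1 the 14 *Rpl* genes under 400 nt had a median log2 ratio of 1.69, and the 14 with 600 nt or more had 0.96. In CN4 these medians were 1.60 and 0.98, and in XN4 1.49 and 1.19. *Rpl4*, with 1257 nt, went against this order (1.505 in XN1, 1.24 in CN4, and 1.81 in XN4). Genes without a ribosomal protein symbol were ordered by length as well. Of the other genes at that level with coding sequences under 600 nt, 456 of 579 were higher in the high tertile of XN1 (median 0.46), 460 of 567 in CN4 (0.52), and 439 of 455 in XN4 (0.98). Of those with 2000 nt or more, 201 of 1143 were higher in XN1 (-0.28), 48 of 1236 in CN4 (-0.34), and 505 of 1119 in XN4 (-0.07). In cells with under 20% mitochondrial reads, the median of the short genes was 0.29 in XN1, 0.46 in CN4, and 0.31 in XN4, and 171 of 1238 long genes were higher in XN4 (-0.33). *Tpt1*, with 516 nt, had 896 and 3316 RPM in the XN1 tertiles (1.89) and 602 and 2642 in CN4 (2.13). *Macf1*, with 22065 nt, had 403 and 255 in XN1 (-0.66) and 342 and 215 in CN4 (-0.67). Both were chosen after their values were seen, and each was more extreme than the median of its length group. *Tpt1* is also on the elongation list described further on.

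**Figure D5:**
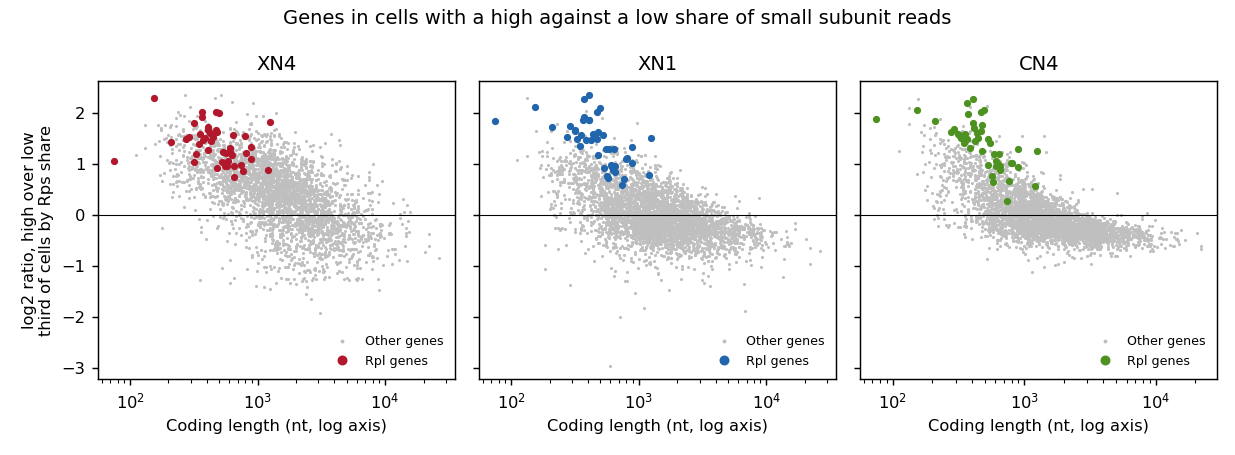
Log2 ratio of RPM between the highest and lowest tertile of cells by *Rps* share (vertical axis) against coding length in nucleotides (horizontal log axis), in XN4, XN1, and CN4. Colored points are the 45 *Rpl* genes, all above 0, and gray points are other protein-coding genes with a geometric mean of at least 50 RPM over both tertiles. With length, the gray points fall from mostly above 0 to mostly below 0 in XN1 and CN4, and to around 0 in XN4.

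Other features moved with these tertiles, and their part was not tested. Mitochondrial reads were 19.02% in the low and 12.5% in the high tertile of XN1, 19.2 and 12.4% in CN4, and 40.1 and 17.6% in XN4. *Malat1*, a nuclear RNA, took 0.585 and 0.285% in XN1, 0.350 and 0.147% in CN4, and 1.94 and 0.565% in XN4. The median depth before thinning was 5500 and 6740 reads in XN1, 8252 and 10410 in CN4, and 8974 and 19990 in XN4. The number of genes detected at equal depth was nearly the same in XN1 (1710 and 1776) and CN4 (1795 and 1787) but not in XN4 (1146 and 1655). The 12 neural stem cell markers summed to 3783 and 4620 RPM in XN1, 6290 and 8797 in CN4, and 552 and 1394 in XN4, and *Sox2* to 255 and 235 in XN1 and 495 and 410 in CN4. The 10 mesenchymal or fibroblast markers summed to 253 and 207 in XN1, 204 and 156 in CN4, and 3413 and 7341 in XN4. The 4 astrocyte markers summed to 110 and 59.9 in XN1 and 89.9 and 47.9 in CN4. The 5 G2-M markers summed to 948 and 1145 in XN1, 2359 and 2200 in CN4, and 391 and 926 in XN4. In cells with under 20% mitochondrial reads, all 45 *Rpl* genes were still higher in the high tertile, by a median of 1.15 in XN1, 1.43 in CN4, and 0.99 in XN4.

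Members with and without a pyrimidine tract at a listed start, such as *Rpl35* and *Rpl9* above, were set side by side. Over the 20 *Rpl* genes with a tract the median log2 ratio between tertiles was 1.49 in CN4, 1.52 in XN1, and 1.44 in XN4. Over the 14 without one it was 1.34, 1.47, and 1.46. The median coding length was 428 nt with a tract and 502 nt without. Over the 14 *Rps* genes with a tract, in cells ordered by *Rpl* share, the median was 1.62 in CN4, 1.53 in XN1, and 1.51 in XN4, and over the 8 without one it was 1.32, 1.38, and 1.37. The median coding length of these was 414 nt with a tract and 446 nt without. The ranges of the groups overlapped for both subunits in every line.

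Genes that act with the ribosome were described from lists by role. Of 8 ribosomal protein genes that the symbol rule leaves out, 7 were tested, and *Fau*, made as a fusion with a ubiquitin-like protein, was the one past 1.5-fold, with 481 RPM in CN4, 485 in XN4, and 318 in XN1, where the shares of all genes higher were 17.8% in CN4 and 22.6% in XN4. In cells with under 20% mitochondrial reads, its log2 ratio was 0.61 in XN4 against XN1, and 0.56 in CN4 against XN1, just within the fold. Over all cells, *Rpl36al* (0.58) and *Rplp0* (0.43) were within the fold in XN4 against XN1. With reads outside ribosomal protein and mitochondrial genes as the total, which moved these ratios by 0.16, both were past it. The genes of ribosome assembly differed more than the members. In CN4 against XN1, 9 of 13 were higher (background 17.8%) and 0 lower, with a median log2 ratio of 0.68 against 0.19 for the members. The 5 G2-M markers summed to 2574 RPM in CN4 and 1117 in XN1, and their part in this difference was not tested. *Ncl*, a nucleolar protein that binds precursor rRNA, had 1217 RPM in CN4 and 759 in XN1 (0.68). *Gnl3*, a nucleolar GTPase of stem cells, had 232 and 110 (1.08), *Nop56*, a core protein of small nucleolar RNPs, 284 and 136 (1.07), and *Dkc1*, the pseudouridine synthase, 173 and 84.9 (1.03). The others were *Npm1*, *Nop58*, *Polr1b*, *Bop1*, and *Nop10*.

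In XN4, 12 of the 13 assembly genes were lower than in CN4 (background 30.3%), with a median of -0.93, and 3 of 13 were lower than in XN1 (background 26.1%), with 0 higher in either pair. *Nhp2* had 21.7 RPM in XN4, 68.5 in XN1, and 87.6 in CN4, and *Bop1* had 19.01, 39.8, and 64.1. *Myc*, a transcription factor that raises ribosome synthesis, had 11.4, 66.9, and 62.9. Of the members, 0 of 76 were past the fold below CN4, with 46 below 0, and after thinning 6 were past it. The median of the members was -0.09, against -0.14 for all genes.

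Of 8 genes on the elongation list, 0 were past the fold between CN4 and XN1. In XN4, 2 were lower than in XN1 (*Eef1a1* and *Eef2*, background 26.1%), and 2 lower than in CN4 (*Eef1a1* and *Eif5a*, background 30.3%). The list also holds *Tpt1* and *Pabpc1*, which are not elongation factors. *Eef1a1*, which brings aminoacyl-tRNA to the ribosome, had 4573 RPM in XN4, 6909 in XN1, and 6983 in CN4. Of 11 initiation genes, *Eif4ebp1*, the inhibitor of the cap-binding protein, was lower in CN4 (28.8) than in XN1 (80.4), and the other 10 were within the fold. Between XN4 and XN1, 1 was higher in XN4 (*Eif4b*, background 22.6%) and 4 lower (background 26.1%), and between XN4 and CN4, 5 were lower (background 30.3%). In cells with under 20% mitochondrial reads, where 21.3% of all genes were lower in XN4 than in XN1 and 24.6% lower than in CN4, 0 elongation genes were lower in XN4 in either pair, and 1 initiation gene was lower than in XN1 and 3 lower than in CN4. Among the factors, *Larp1*, which binds TOP tracts, was even at 181, 193, and 196.

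KN1 could be set beside the other lines only for genes outside the members, as mean reads per 10000 in the normalized tables. Of 11564 genes with at least 0.05 reads per 10000 in any table, 35.7% were lowest and 31.3% highest in KN1. *Fau* had 5.45 in KN1, between 3.85 in XN1 and 7.05 in XN4. Of 8 genes on the elongation list, 7 were lowest in KN1, *Pabpc1* among them, and 0 were highest. *Eef1a1* had 17.5, against 46.8 in XN4, 85.0 in XN1, and 86.9 in CN4. *Tpt1*, on the list but not an elongation factor, had 5.55, against 20.1, 27.8, and 20.96. Of 11 initiation genes, 7 were lowest and 2 highest, and of 6 factors 2 were lowest and 1 highest. Of 13 assembly genes, 6 were highest in KN1, such as *Nop56* (9.92, against 1.74, 1.59, and 3.40) and *Gnl3* (4.40, against 1.05, 1.33, and 2.77), and 3 were lowest, among them *Npm1* (5.97, against 12.2, 10.3, and 18.5). The library and the line cannot be told apart in these values.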

How the data were processed

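The deposited tables of XN4, XN1, and CN4 hold counts of reads, not of molecular identifiers, per gene in every cell, without normalization. Per the file headers, the authors obtained these counts with the BD Rhapsody WTA pipeline (1.12.1) on GRCm38 and GENCODE M19, with reads in introns counted. The 4 normalized tables, KN1 included, hold, for a random subset of cells, natural log values that the authors computed with Seurat (4.3.0, per the submitters' processing notes) once ribosomal protein and mitochondrial genes had been removed, and they were converted back into reads per 10000. Doublets were not called. Reads were summed over cells and divided by the library total (RPM). Cells were compared after thinning to 3600 reads, which left out shallower cells. Shares have exact (Clopper-Pearson) and levels exact Poisson 95% intervals, computed with scipy 1.17.1. No test between lines was possible with 1 library each. Stretches of 75 bases and coding lengths came from GENCODE M21. Named genes were both genes of each paralog pair, the 5 most abundant members, the 5 largest and 5 smallest ratios per pair of lines, members past the fold, those under 5 RPM in every line, and *Rpl5* and *Rpl11*. Members and lists were chosen with earlier results of these data known. The ordering of cells by the other subunit was added after seeing the data. The ratio between lines was tested on simulated reads, and thinning was checked on cells of XN1. The ordering of cells into tertiles was not tested on simulated data. Single values of a few genes that these rules select are not reported here, although the genes are part of every count, share, and median.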

Additional observations from a re-analysis of the deposited data

Results flagged for a closer look

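Reads of ribosomal protein sequence were also found outside the measured members, in genes that counted only among all genes or other genes in the comparisons. Among the listed genes, 7 hold at least 50% of the coding stretches of a ribosomal protein gene under a symbol that does not start with Rpl or Rps. They took 0.0468% of the reads in XN4, 0.0375% in XN1, and 0.0444% in CN4. Leaving out symbols that start with Rpl or Rps did not remove them from the normalized tables, KN1 included. *Gm10076*, a copy of *Rpl41*, had a mean of 1.03 reads per 10000 in KN1, 0.933 in XN4, 0.416 in XN1, and 0.554 in CN4. *Gm10036*, a copy of *Rpl11*, had 1.15, 1.33, 0.900, and 1.24 in KN1, XN4, XN1, and CN4. Per 100 member reads, these copies held 0.779 reads in XN4, 0.720 in XN1, and 0.729 in CN4.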

How the results depend on the processing

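Of 147 alternative values of the main results, 76 stayed within the counting interval or within 1.5 times the count, and 71 did not, and the causes of the changes were not tested. With reads outside ribosomal protein and mitochondrial genes as the total, members above 0 went from 49 to 64 of 76 for XN4 over XN1 and from 30 to 50 for XN4 over CN4, so that small ratios such as those of *Rpl5* and *Rpl27a* against CN4 have no fixed direction. Under the same total, the median of all genes went from -0.07 to 0.09 for XN4 over XN1 and from -0.14 to -0.0004 for XN4 over CN4. Under that total, lower in XN4 than in XN1 were 0 elongation and 2 initiation genes (21.5% of all genes), and lower than in CN4 1 and 3 (25.3%). The share of reads from the members in XN4, XN1, and CN4 was 5.83, 5.16, and 5.87% in the cells of the normalized tables, 5.63, 5.12, and 5.95% without the 5% of cells with the most reads, 5.17, 5.13, and 5.85% after thinning, 7.30, 5.61, and 6.38% in cells with under 20% mitochondrial reads (added after seeing the data), 7.77, 6.14, and 7.18% without mitochondrial genes in the total, 4.73, 5.13, and 6.07% as the median over cells, and 6.48, 5.62, and 6.51% with the ribosomal protein genes that the symbol rule leaves out. At a fold of 2, members higher and lower in XN4 than in XN1 numbered 2 and 0 (6 and 2 at 1.5-fold), higher and lower in CN4 than in XN1 0 and 0 (9 and 1), and higher in XN4 than in CN4 0 (2), where 14.1 and 16.4%, 7.73 and 8.91%, and 15.1% of all genes were past that fold. With reads outside ribosomal protein and mitochondrial genes as the total, which moved the ratios of XN4 by 0.16 log2 against XN1 and by 0.14 against CN4, the counts were 19 and 0 for XN4 against XN1 and 4 higher in XN4 than in CN4, and among all genes the percentages became 27.9 and 21.5% and 26.3%. With the median of the members set to 1, they were 3 and 5 for XN4 against XN1 (18.5 and 32.1% of all genes), 0 and 3 for CN4 against XN1 (12.0 and 21.8%), and 4 higher in XN4 than in CN4 (24.7%). Without the filter on low values, 2 were lower in CN4 than in XN1 (25.2% of all genes) and 1 lower in XN4 than in CN4 (26.5%). In the cells of the normalized tables, 5 were higher and 2 lower in CN4 than in XN1 (18.2 and 16.2%). Without the deepest 5% of cells, 5 were lower in XN4 than in XN1 (28.3% of all genes) and 3 lower than in CN4 (33.0%). After thinning, 3 were higher and 8 lower in XN4 than in XN1 (21.9 and 32.6%), and 6 lower than in CN4 (36.8%). In cells with under 20% mitochondrial reads, 18 were higher and 0 lower in XN4 than in XN1 (24.3 and 21.3% of all genes), 4 higher in CN4 than in XN1 (17.7%), and 5 higher in XN4 than in CN4 (24.0%). *Rpl22l1* gave 20.6% of its pair in XN4, 35.5% in XN1, and 31.6% in CN4 in the cells of the normalized tables, 19.6% in XN4 without the deepest cells, and 19.1% in XN4 and 31.8% in CN4 after thinning. *Rps27l* gave 16.4% in XN4 and 23.4% in XN1 in the cells of the normalized tables, 15.9% in XN4 without the deepest cells, and 15.2% in XN4 and 15.4% in CN4 after thinning. *Rpl7l1* gave 6.59% in XN4 after thinning. The rare paralogs moved by a few reads. *Rpl39l* gave 0% in XN1 and CN4 in the cells of the normalized tables and 0.00419% in XN4 after thinning, *Rpl3l* gave 0% in CN4 in both, and *Rpl10l* gave 0.00862% in XN4, 0% in XN1, and 0.0214% in CN4 in the cells of the normalized tables, and 0.0590% in XN4 and 0% in CN4 after thinning. At a fold of 2, 3 assembly genes were higher in CN4 than in XN1 (7.73% of all genes), and 5 were lower in XN4 than in CN4 (17.9%). The *Rpl* or *Rps* genes with a geometric mean of at least 50 RPM over the tertiles (a level chosen after seeing the data) were all higher in the high tertile in every line, also when the subunits were exchanged, in cells with under 20% mitochondrial reads, and without mitochondrial genes in the total. With no filter, 97.9, 97.9, and 95.8% of *Rpl* genes were higher in XN4, XN1, and CN4. The share of all genes higher was not computed. No paired analysis was possible because each line is 1 library. Depth limits the rare paralogs most, as the other members had 1141 reads or more in each line, and it limits *Rps10* in single cells.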
